A study of Mus musculus with 8 samples.

Results

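Granins and the enzymes that process neuropeptides were examined in the embryonic lateral ganglionic eminence, with and without the transcription factor Meis2. The set comprised 10 genes taken by symbol from the 16913 genes of the authors' deposited table, and all 10 were listed there. The granins are Scg5, Scg3, Chga, Chgb, Scg2 and Vgf, and the processing genes are Cpe, Pcsk1, Pcsk2 and Pcsk1n. The lateral ganglionic eminence is the ventral forebrain zone that gives rise to the projection neurons of the striatum. It was dissected at embryonic day 14.5, and RNA-seq was made from 4 Meis2-CKO samples (Dlx5/6-Cre;Meis2F/F, both Meis2 alleles floxed) and 4 littermate control samples (Dlx5/6-Cre;Meis2F/+, with 1 floxed allele). Both groups carried the Cre driver on a mixed background of C57BL/6J and CD1, so the control is not a wild type, and the Cre acts only in cells of the Dlx5/6 lineage. The sources used here do not say whether a sample pooled embryos.

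Neuropeptides and many secreted proteins of neurons travel in dense-core granules. Granins are acidic proteins that aggregate in the trans-Golgi network and help to form and load these granules, and several are themselves cut into peptides. The prohormone convertases encoded by Pcsk1 and Pcsk2 cut the precursors at pairs of basic residues, and the carboxypeptidase encoded by Cpe then trims those residues away. Scg5 encodes 7B2, which binds the Pcsk2 convertase as a chaperone and an inhibitor, and Pcsk1n encodes proSAAS, an inhibitor of the Pcsk1 convertase. In the adult striatum, direct-pathway projection neurons make substance P and dynorphin and indirect-pathway neurons make enkephalin, peptides released by this route.

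The data are the authors' mean expression signal per genotype, their log2 fold change, with Meis2-CKO on top, and their p-values. The means have no spread between samples, the header names no unit and the sequencing depth is unknown, so no SD, interval or detection floor accompanies a value. Meis2 itself had authors' means of 140 in Meis2-CKO and 204 in control, a log2 fold change of -0.53 that passed (adjusted p = 0.00195 in the authors' deposited table). Over all genes, 132 passed an adjusted p of 0.05 in the authors' deposited table (0.78%), of which 92 were lower in Meis2-CKO (0.544%) and 40 higher (0.237%). These shares are over genes of every type, while all 10 genes of the set are protein-coding. With the p-values readjusted over protein-coding genes alone, 40 genes were called in either direction. Across the table the log2 fold changes had a median of 0.01. The genotypes also differed in sex-linked genes. The Y-linked Eif2s3y had authors' means of 14.0 in Meis2-CKO and 50.5 in control, and passed (adjusted p = 1.02e-16 in the authors' deposited table). Xist had means of 256 in Meis2-CKO and 78.0 in control, and did not pass (authors' deposited table, unadjusted p = 0.0136, adjusted p = 0.985). The part of these sex-linked differences in the results below was not tested.

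Of the 10 genes, Scg5 fell and the other 9 did not pass the test. Scg5 (ENSMUSG00000023236, chr2:113776362-113829121, GRCm38, minus strand, protein-coding) had an authors' mean of 36.1 in Meis2-CKO and 64.8 in control. It was 1.78-fold lower in the knockout by the authors' deposited table (log2 fold change of -0.83 at an adjusted p = 4.34e-06), and its Meis2-CKO mean was 55.7% of its control mean. Its p-value ranked 60 among the 16913 genes. The 10 genes thus held 1 call, in the direction in which 0.544% of all genes were called. The authors' means of the 10 genes summed to 249.6 in Meis2-CKO and 294.1 in control, and Scg5 accounted for 64.7% of that difference. Without Scg5 the sums of the other 9 were 213.5 in Meis2-CKO and 229.2 in control, 6.85% lower.

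**Figure D1:**
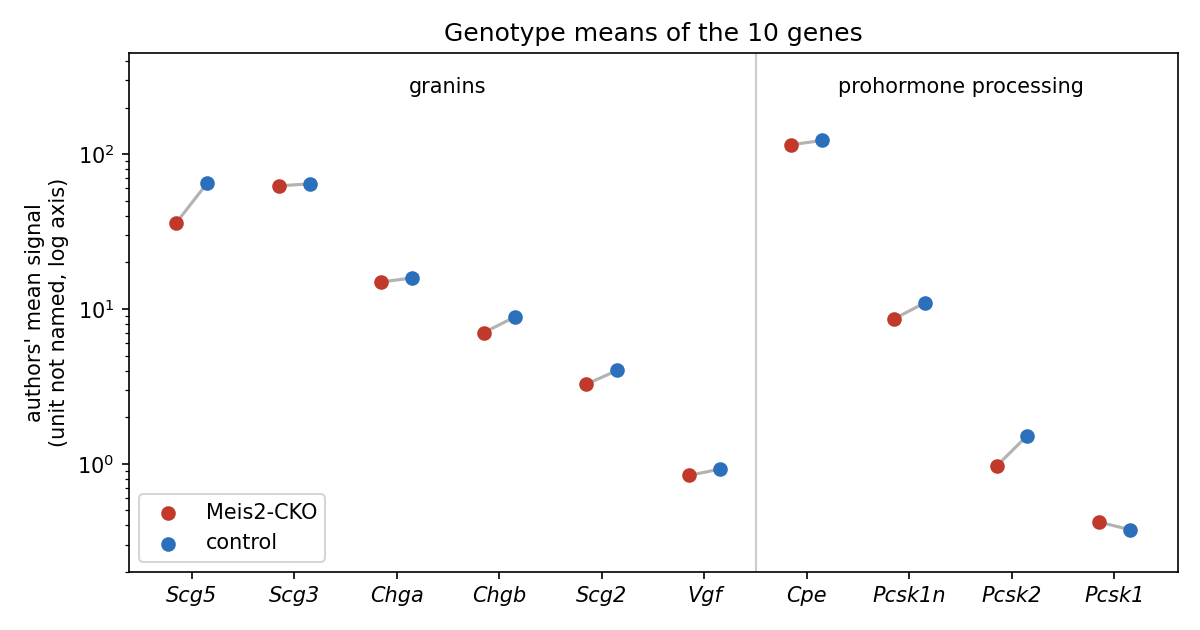
Authors' mean signal of each of the 10 genes in Meis2-CKO (red, left of each pair) and control (blue, right), on a log axis. Scg5 stands at 36.1 in Meis2-CKO and 64.8 in control, Pcsk1 is the 1 gene with a higher Meis2-CKO mean, and the levels run from below 1 for Vgf and Pcsk1 to 115 and 123 for Cpe; the means carry no error bars because no spread between samples was available.

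The closest comparison for Scg5 was Scg3, a granin that binds chromogranin A and the granule membrane. In control the pair stood at nearly the same level, and the ratio of Scg3 to Scg5 was 1.73 in Meis2-CKO and 0.991 in control. Scg3 (ENSMUSG00000032181, chr9:75643189-75684056) had authors' means of 62.4 in Meis2-CKO and 64.2 in control, and its log2 fold change of -0.03 did not pass (unadjusted p = 0.826 in the authors' deposited table). Whether the change of Scg5 differed from that of Scg3 was not tested, since values per sample were not used.

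The chromogranins were less abundant. Chga (ENSMUSG00000021194, chr12:102554969-102565028), which encodes chromogranin A, a driver of granule formation, had authors' means of 14.9 in Meis2-CKO and 15.9 in control (log2 fold change -0.07). Chgb (ENSMUSG00000027350, chr2:132781278-132795079), which encodes chromogranin B, had means of 7.04 in Meis2-CKO and 8.86 in control (log2 fold change -0.31). Scg2 (ENSMUSG00000050711, chr1:79434669-79440120), the precursor of the peptide secretoneurin, stood at 3.27 in Meis2-CKO and 4.01 in control (log2 fold change -0.27). Vgf (ENSMUSG00000037428, chr5:137026392-137033351), a nerve growth factor-inducible granin and peptide precursor, was low at 0.840 in Meis2-CKO and 0.923 in control (log2 fold change -0.11). None of these 4 passed, and their unadjusted p-values in the authors' deposited table were 0.777 for Chga, 0.379 for Chgb, 0.600 for Scg2 and 0.910 for Vgf. All 6 granins had a log2 fold change below 0, and 5 of them had none that passed.

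Among the processing genes the trimming enzyme was abundant and the convertases were scarce. Cpe (ENSMUSG00000037852, chr8:64592542-64693054) had the highest level of the 10, with authors' means of 115 in Meis2-CKO and 123 in control (log2 fold change -0.08, unadjusted p = 0.465 in the authors' deposited table). Pcsk2 (ENSMUSG00000027419, chr2:143546156-143816285) had means of 0.965 in Meis2-CKO and 1.52 in control, a log2 fold change of -0.58 that did not pass (unadjusted p = 0.488 in the authors' deposited table). Pcsk1 (ENSMUSG00000021587, chr13:75089826-75134861) was the least abundant, with means of 0.420 in Meis2-CKO and 0.375 in control (log2 fold change 0.13, unadjusted p = 0.913 in the authors' deposited table). Pcsk1n (ENSMUSG00000039278, chrX:7919822-7924410) stood at 8.62 in Meis2-CKO and 10.96 in control, with a log2 fold change of -0.33 and the lowest p of the 9 genes that did not pass (unadjusted p = 0.308 in the authors' deposited table). Pcsk1n is X-linked, and the Xist means above differ between the genotypes; their part in its value was not tested.

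In mean RNA signal each convertase gene stood below the gene of its binding partner. The convertase means were low, and protein was not measured. The ratio of Scg5 to Pcsk2 in authors' means was 37.4 in Meis2-CKO and 42.6 in control, and that of Pcsk1n to Pcsk1 was 20.5 in Meis2-CKO and 29.2 in control. These ratios set different genes side by side and hold only as far as the signal is scaled by transcript length. When protein-coding genes were put into 5 bins by length, the median control signal was 9.18 in the bin with a median exon length of 1724 nt and 14.2 in that with 10060 nt, a smaller step than that in length. The exon length is 1569 nt for Scg5 and 7910 nt for Pcsk2, and 2193 nt for Pcsk1n and 5604 nt for Pcsk1.

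As a group, 9 of the 10 genes had a log2 fold change below 0, where 46.7% of all genes did. The median of the 10 was -0.19, and that of the 9 without Scg5 was -0.11. Apart from Scg5 the log2 fold changes ran from -0.58 for Pcsk2 to 0.13 for Pcsk1. An unadjusted p under 0.05 was reached by 1 of the 10, Scg5, and by 2.17% of all genes.

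The size of change that was called depended on the level, which bears on the genes that did not pass. Scg5, Scg3 and Cpe lie among the 1197 protein-coding genes with a control mean from 60 to 200, of which 4 were called, all lower in Meis2-CKO. In that range the smallest called fall was a log2 fold change of -0.51, for Klhl13, and Scg5 was the 1 gene with a log2 fold change of -0.83 or below. Chga, Chgb and Pcsk1n lie among the 4439 genes with a control mean from 5 to 20, where no fall smaller than that of Rph3a, at a log2 fold change of -1.60, was called. For Scg2 and Pcsk2, among the 2633 genes with a control mean from 1 to 5, the smallest called fall was that of Ppm1j at -2.91. Among the 1561 genes with a control mean below 1, which include Vgf and Pcsk1, no fall was called. At the levels of Chga, Chgb, Pcsk1n, Scg2, Pcsk2, Vgf and Pcsk1 the authors' calls thus held no fall as small as that of Scg5. Rises of that size were called near the level of Chga, with a log2 fold change of 0.83 for Arrdc4 and 0.93 for Gm3411 at control means of 17.2 for Arrdc4 and 14.6 for Gm3411. Klhl13, Rph3a, Ppm1j, Arrdc4 and Gm3411 are named for their place at the limit of the calls, after their values were seen.

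**Figure D2:**
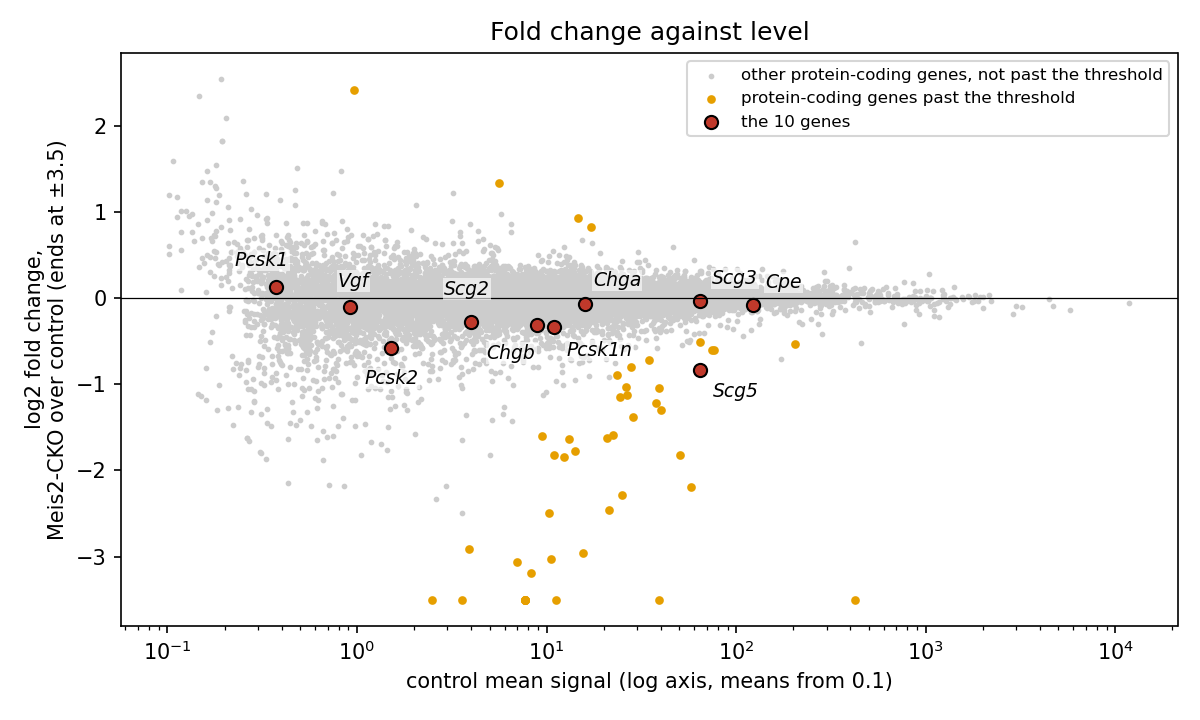
Log2 fold change (Meis2-CKO over control) against the control mean signal for protein-coding genes (grey), those past an adjusted p of 0.05 (orange) and the 10 genes (red, named). Scg5 lies at -0.83 below the grey band at its level, while the other 9 lie inside the band, which widens towards low signal.

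The genes share more than their place in the granule. In the Gene Ontology terms carried by the authors' deposited table, all 10 are annotated to the extracellular region or extracellular space, as are 6.01% of all genes. The term secretory granule is carried by 7 of the 10, namely Chga, Chgb, Scg2, Scg5, Cpe, Pcsk2 and Pcsk1n, and by 70 genes in all. Of those 70, 2 were called in the authors' deposited table, Scg5 and Rph3a, both lower in Meis2-CKO, beside 0.544% of all genes. Scg5, Pcsk1, Pcsk2 and Pcsk1n are among the 10 genes annotated to peptide hormone processing, and Scg5 was the 1 called there. The genes were chosen for this function, so the overlap with these terms is a description of the choice.

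By position, 3 of the 10 lie on chromosome 2, which also carries Meis2. The near end of Scg5 is 2.03 Mb from Meis2, that of Chgb 16.7 Mb and that of Pcsk2 27.5 Mb. On chromosome 2 the authors' deposited table called 13 of 1368 genes lower (0.95%), where 0.544% of all genes were. Scg5 and Meis2 were among the 13. Near-identical copies of a gene were not set apart in this count, so no excess on the chromosome is read from it. Scg5 and Meis2 were the called genes in the interval from 1 Mb beyond Scg5 to Meis2, and both fell. None of the 9 listed genes between them passed, and their log2 fold changes ran from -0.06 to 0.61 in the authors' deposited table. The nearest, Arhgap11a, on the same strand 2370 bases upstream of Scg5, had authors' means of 45.7 in Meis2-CKO and 41.8 in control (log2 fold change 0.14). On the other side Ryr3, a calcium release channel gene, had means of 1.16 in Meis2-CKO and 1.48 in control. These neighbours were chosen by position after the value of Scg5 was seen. The groups differ in floxed Meis2 alleles on a mixed background, and any part of DNA linked to them in the value of Scg5 was not tested.

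**Figure D3:**
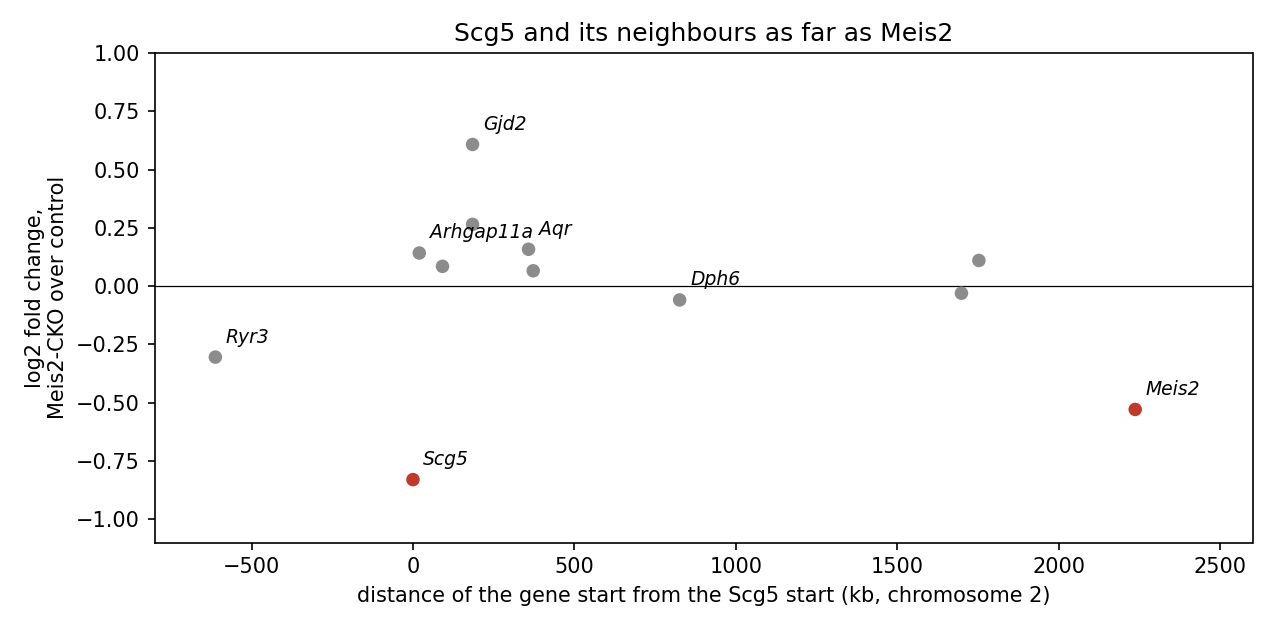
Log2 fold change (Meis2-CKO over control) for the listed genes of chromosome 2 from 1 Mb beyond Scg5 as far as Meis2, by the distance of each gene's start from that of Scg5 in kb. Scg5 (-0.83) and Meis2 (-0.53), in red, passed an adjusted p of 0.05, and the genes between them, in grey, did not and lie between -0.06 and 0.61.

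No other annotated gene overlaps Scg5 on either strand. Overlaps were found for 3 of the 10 genes, and no source used here says that the counting kept to a strand, so reads there cannot be told apart. Pcsk2 shares 1682 bases with the antisense gene Pcsk2os1, which had authors' means of 0.810 in Meis2-CKO and 1.34 in control, and 48383 bases with Pcsk2os2. Pcsk1n shares 135 bases with Eras, and Scg3 shares 688 bases with Gm37871.

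The promoter sequences of 5 of the genes are shown to set Scg5 beside Scg3, which had nearly the same control level, and beside the 3 genes that carry a full cAMP response element. Each is the 250 bases before the RefSeq gene start on GRCm38.p6, read 5′ to 3′ on the gene's strand, and RefSeq promoters were matched for 8 of the 10. GENCODE places the gene start of Scg5, Scg2, Chgb and Pcsk1 further upstream, inside or before these windows. Capitals mark the cAMP response element TGACGTCA and its half-site TGACG on either strand, the half-site being part of the full element.
Scg5 (chr2:113829092-113829341, minus strand): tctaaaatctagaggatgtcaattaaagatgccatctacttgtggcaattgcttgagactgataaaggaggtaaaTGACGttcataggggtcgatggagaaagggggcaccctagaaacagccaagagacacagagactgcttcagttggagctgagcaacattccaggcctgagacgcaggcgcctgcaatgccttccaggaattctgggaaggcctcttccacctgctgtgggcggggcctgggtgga
Scg3 (chr9:75684057-75684306, minus strand): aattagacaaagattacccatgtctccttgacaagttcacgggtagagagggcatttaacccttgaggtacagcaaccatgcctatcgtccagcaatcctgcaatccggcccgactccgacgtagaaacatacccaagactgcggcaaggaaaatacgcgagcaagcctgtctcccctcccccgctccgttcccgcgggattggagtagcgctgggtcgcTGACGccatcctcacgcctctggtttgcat
Scg2 (chr1:79440027-79440276, minus strand): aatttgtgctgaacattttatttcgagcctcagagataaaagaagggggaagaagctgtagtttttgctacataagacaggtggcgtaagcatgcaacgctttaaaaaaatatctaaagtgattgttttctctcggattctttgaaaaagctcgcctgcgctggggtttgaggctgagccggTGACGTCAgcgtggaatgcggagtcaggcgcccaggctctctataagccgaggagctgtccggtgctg
Chgb (chr2:132781392-132781641, plus strand): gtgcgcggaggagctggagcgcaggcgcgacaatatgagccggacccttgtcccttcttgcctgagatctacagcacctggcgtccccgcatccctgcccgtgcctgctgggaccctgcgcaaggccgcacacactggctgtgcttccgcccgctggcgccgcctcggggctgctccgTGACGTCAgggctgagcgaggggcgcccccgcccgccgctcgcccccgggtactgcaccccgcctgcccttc
Pcsk1 (chr13:75089607-75089856, plus strand): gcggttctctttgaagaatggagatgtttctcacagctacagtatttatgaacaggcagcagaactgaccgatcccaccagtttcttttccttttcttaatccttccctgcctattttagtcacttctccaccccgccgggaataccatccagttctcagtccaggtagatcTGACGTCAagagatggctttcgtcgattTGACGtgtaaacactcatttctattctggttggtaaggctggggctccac

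The cAMP response element is the binding site of CREB, a factor long known to act on granin promoters. TGACGTCA was found 68 to 61 bases before the start of Scg2, 72 to 65 bases before that of Chgb and 78 to 71 bases before that of Pcsk1, and in none of the other 5 windows. Of all 32851 promoter windows, 1.55% hold it. The half-site TGACG occurred in 7 of the 8 windows, against 17.8% of all windows, and lay 175 to 171 bases before the start of Scg5 and 30 to 26 bases before that of Scg3. Pcsk1n was the 1 window without it. The hexamer TGACAG, a core recognised by Meis and other TALE factors, and the homeodomain core TAATTA were each in 0 of the 8 windows on either strand, where 15.9% and 4.84% of all windows hold them. These motifs were chosen after the sequences were seen, and a match or its lack describes these letters only.

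Other genes of the pathway were examined in 5 lists of 92 genes, of which 75 were among the rows analysed here. Of the 75, 2 fell and 0 rose in the authors' deposited table, where 0.544% of all genes were lower and 0.237% higher, and the median log2 fold change was -0.07. The 73 others did not pass; 1 of them, Syt4 (21.8 in Meis2-CKO and 30.3 in control), named after its value was seen, had an unadjusted p under 0.05.

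Enzymes with related roles gave no call in the authors' deposited table, and none of them had an unadjusted p under 0.05. Of the other proprotein convertases 6 of 7 were listed, with a median log2 fold change of -0.05. Mbtps1, the site-1 protease of the Golgi, had authors' means of 45.4 in Meis2-CKO and 42.4 in control, Pcsk7 14.2 in Meis2-CKO and 14.7 in control, and the widely expressed Furin 5.77 in Meis2-CKO and 5.57 in control. Of the further peptide-processing enzymes 10 of 11 were listed, with a median of -0.03. Pam, which amidates peptides after trimming by carboxypeptidase, stood at 28.6 in Meis2-CKO and 27.2 in control, the aminopeptidase gene Rnpep at 20.6 in Meis2-CKO and 22.2 in control, and the cathepsin gene Ctsl at 22.5 in Meis2-CKO and 21.96 in control.

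The peptide precursors, the cargo of these granules, included 1 gene that fell, where 0.544% of all genes did. Tac1, the substance P precursor, had authors' means of 1.89 in Meis2-CKO and 15.6 in control, and its log2 fold change of -2.95 passed (authors' deposited table, adjusted p = 1.64e-09). The most abundant precursor, somatostatin (Sst), stood at 79.0 in Meis2-CKO and 78.2 in control, and neuropeptide Y (Npy) at 26.0 in Meis2-CKO and 25.4 in control. Neither passed. Of 24 precursors and related ligands 19 were listed, 12 of them with a log2 fold change below 0 and a median of -0.12. The enkephalin precursor Penk had means of 0.583 in Meis2-CKO and 2.01 in control and neurotensin (Nts) 3.66 in Meis2-CKO and 6.45 in control; both were named after their values were seen, and neither passed.

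Genes of granule biogenesis and release gave 1 fall among 27 listed of 30, beside 0.544% of all genes. Syt6, a member of the synaptotagmin family of membrane trafficking proteins, had authors' means of 11.96 in Meis2-CKO and 26.5 in control, and its log2 fold change of -1.13 passed (authors' deposited table, adjusted p = 0.000541). Gnas, a complex imprinted locus whose products include the granin-like NESP55 and the stimulatory G protein, stood at 428 in Meis2-CKO and 423 in control. The small GTPase gene Rab2a had means of 109 in Meis2-CKO and 118 in control, and the vesicle SNARE gene Vamp2 73.9 in Meis2-CKO and 81.1 in control. The list median was -0.10, and 20 of the 27 lay below 0.

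**Figure D4:**
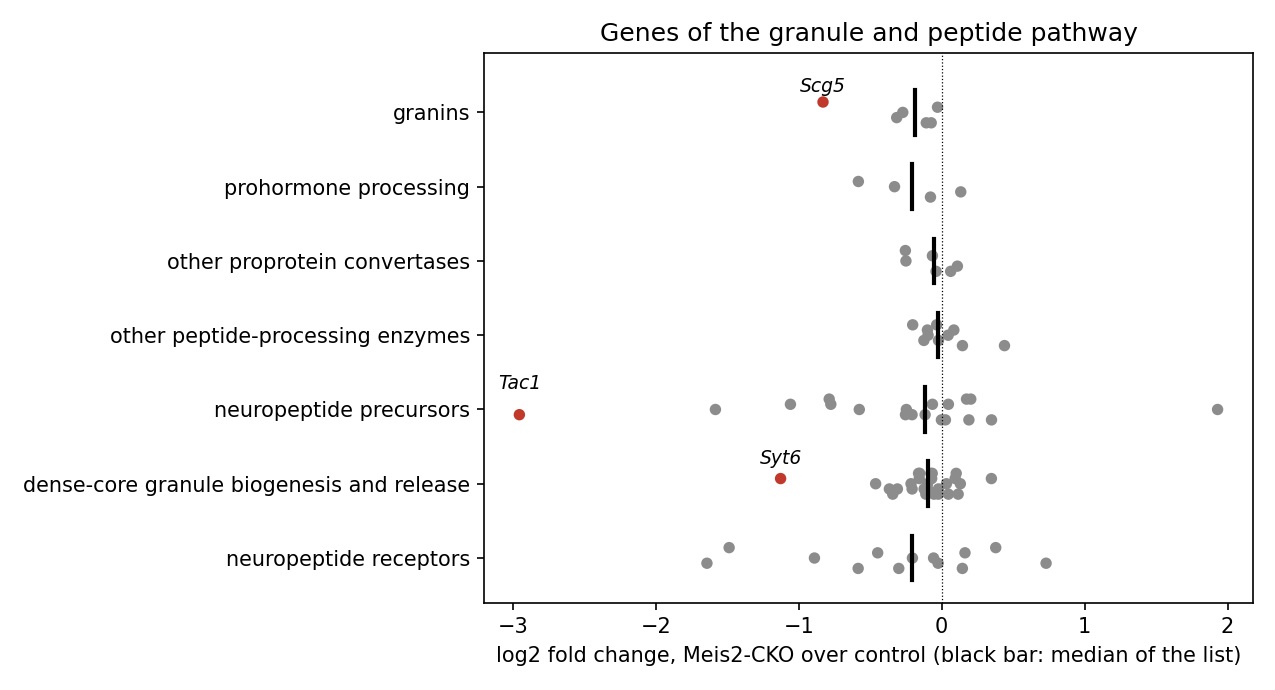
Log2 fold change (Meis2-CKO over control) for each listed gene of the granins, the processing genes and 5 further lists of the pathway; black bars are list medians and red points passed an adjusted p of 0.05. Scg5, Tac1 and Syt6 passed, all 3 lower, the point farthest to the right is Tac2, which is listed at 0 in control, and the list medians lie between -0.20 and -0.03.

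Many markers of young neurons and of striatal projection neurons were lower beside Scg5. Over all genes, 46.7% had a log2 fold change below 0 and 0.544% were called lower. Other neuronal lists, taken up below, mostly lay above 0, with 9 of 10 pallial glutamatergic genes and 6 of 9 interneuron genes. Of 13 young-neuron genes 11 had a log2 fold change below 0, with a median of -0.29 and summed authors' means of 1894 in Meis2-CKO and 2153 in control, and the neurofilament genes Nefl and Nefm fell. All 10 pan-striatal genes, with the floxed Meis2 itself among them, lay below 0 with a median of -0.60. Foxp1, Zfp503, Bcl11b and Rarb fell, as did Meis2, whose fall was set by the design. Of 7 listed direct-pathway genes 6 lay below 0, with a median of -1.69, and Isl1, Ebf1 and Tac1 fell. Of the 6 listed indirect-pathway genes 5 lay below 0, with a median of -1.01 and no call. An unadjusted p under 0.05 was reached by 4 of them, in both directions. Six3, Adora2a and Drd2 were lower in Meis2-CKO, and Sp9 was higher, at 44.5 in Meis2-CKO and 34.3 in control. All 10 progenitor genes lay above 0, with a median of 0.22, summed means of 1968 in Meis2-CKO and 1743 in control, and no call, with 1 unadjusted p under 0.05. The part of these shifts in the value of Scg5 was not tested, and in bulk tissue fewer cells of a type and less RNA per cell cannot be told apart.

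The 10 pan-striatal genes had summed authors' means of 378 in Meis2-CKO and 543 in control, and the progenitor sums are given above. Some striatal markers were low in Meis2-CKO. The lowest Meis2-CKO mean was 0.53 among pan-striatal, 0.33 among direct-pathway and 0.58 among indirect-pathway genes. Without a detection floor, presence at such levels cannot be judged. Endocrine cells, in which granins are best known, left little signal, with 2 of 8 pituitary and adrenal genes listed, Th at 1.67 in Meis2-CKO and 2.06 in control and Pomc at 1.68 in Meis2-CKO and 1.45 in control. No call was made among the markers of other cell types, where 1 pallial gene had an unadjusted p under 0.05. Their median log2 fold changes were 0.16 for 10 pallial glutamatergic genes, 0.17 for 9 interneuron genes of the medial and caudal eminences, 0.03 for 7 endothelial and pericyte genes, 0.00 for 5 microglial genes, 0.05 for 6 red blood cell genes and -1.01 for 5 meningeal fibroblast genes. The last stood at summed means of 2.18 in Meis2-CKO and 4.01 in control. The part of these cells in the value of Scg5 was not tested.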

How the data were processed

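RNA from 8 lateral ganglionic eminence samples, 4 Meis2-CKO and 4 control by their titles, was isolated with a column kit, per the labels' protocols. The submitters' processing notes name StringTie 1.3.1, HISAT2 2.1.0, FastQC 0.11.5 and the builds mm10 and GRCm38.p2, but give none a role. The deposited table gives a mean expression signal per genotype, averaged by the authors over replicates, per the file headers, in a unit not named. The log2 fold change, p-value and adjusted p were deposited by the authors, with a tool that the sources used here do not give. Benjamini-Hochberg adjustment of the p-values over all 16913 genes gave the same adjusted p. A gene was called at an adjusted p under 0.05.

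A further 8 columns, per library, carry names that match no sample label and were not used, so the planned fits per library (limma, other scalings, leaving out each replicate, the replicate block) were not run. The p-values may measure only technical spread, since nothing says how samples relate to embryos.

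Counts, medians, ratios, readjusted p-values and motif matches were computed here with Python 3.11.15, numpy 2.4.6 and pandas 2.3.3, and the adjustment was tested on simulated data. Positions and exon lengths came from GENCODE M21 (GRCm38), matched by Ensembl ID for 16861 genes. The genes and lists were chosen with earlier results of these data known. The text names the 10 genes, Meis2, and from each pathway list the called genes and the 3 with the highest control mean. From the marker lists it names called genes and the 2 listed endocrine genes, and gives counts for the rest. The 4 indirect-pathway genes with an unadjusted p under 0.05 are also named, after their values were seen. Alternatives were a pseudocount of 1, centring, a fold change of 1.5, a mean of at least 1, means above 0, the Benjamini-Yekutieli adjustment and, added after seeing the data, protein-coding genes, genes of 300 nt or more and removal of chromosomes X and Y. The result for 1 further gene is not reported here.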

Additional observations from a re-analysis of the deposited data

How the results depend on the processing

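Scg5 remained lower under all 8 alternatives run for it, but none of them could have reversed its direction. Those that readjusted the p-values kept the deposited fold change. A pseudocount keeps the order of the means, and centring moved the log2 fold change by only 0.01. Scg5 was past the threshold in the 6 that readjusted the p-values, with an adjusted p from 3.56e-06 to 4.47e-05. The 2 that rescaled the fold change gave no p of their own, and Scg5 had a log2 fold change of -0.83 with a pseudocount of 1 and of -0.84 centred on the median. It also passed with a fold change of at least 1.5. The other 9 genes kept their direction, which these alternatives could not reverse either, and did not pass in any that readjusted. Their lowest unadjusted p in the authors' deposited table was 0.308, and an adjusted p cannot lie below the unadjusted p. Vgf and Pcsk1, below a mean of 1, had no value under that minimum, and X-linked Pcsk1n none without chromosomes X and Y. Tac1 and Syt6 were past the threshold in each alternative count. The count of all genes called, 132, was 60 among genes above 0 in both genotypes, 51 among genes of 300 nt or more and 40 among protein-coding genes. Each of these tests fewer genes, but the first leaves out only 304 of the 16913, those with a mean of 0 in a genotype. The 132 calls, and the shares of all genes given above, thus depend on such genes. No paired analysis was possible because the columns that hold values per library carry no replicate number of a sample. For the same reason no replicate was left out. The low signal of Vgf, Pcsk1, Pcsk2 and Scg2 and the unknown depth limit what can be said of them.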

Other observations

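Receptors for neuropeptides, the downstream partners of the granule cargo, gave no call among 13 listed of 20 in the authors' deposited table, and none had an unadjusted p under 0.05. Their median log2 fold change was -0.20, and 9 lay below 0. Adcyap1r1, the PACAP receptor gene, had authors' means of 33.1 in Meis2-CKO and 30.2 in control, the nociceptin receptor gene Oprl1 12.1 in Meis2-CKO and 15.1 in control, and the somatostatin receptor gene Sstr2 15.3 in Meis2-CKO and 13.7 in control. The opioid receptor genes Oprm1 (0.11 in Meis2-CKO and 0.613 in control) and Oprk1 (0.123 in Meis2-CKO and 0.573 in control), named after their values were seen, had the lowest log2 fold changes of the list, -1.64 and -1.49, at levels where no fall was called in any protein-coding gene.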
